A study of Argopecten irradians with 2 samples.

Results

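The mitochondrial genome of the bay scallop gill was represented by 3 unigenes of the 60308 listed in the expression tables. A unigene is a sequence assembled from the reads without a reference genome, and the 3 were chosen by the words of their annotation. The best hit in the protein databases Nr or Swiss-Prot had to name a protein gene of animal mitochondrial DNA, the Nr hit had to come from a scallop genus, and at least 10 reads had to be counted over both libraries. The words matched 11 unigenes, of which 3 had a scallop hit, and all 3 passed the minimum of reads. Gills of *Argopecten irradians* were sequenced after 48 h with 80 mg/L palmitoleic acid (PA), a monounsaturated fatty acid and algicide, and after 48 h with the dimethyl sulphoxide (DMSO) in which PA had been dissolved. Each condition was represented by 1 library, and each library was labelled as a pool of tissue from 18 scallops. The methods describe replicate pools, but these were not separate in the files, so that no value here has a replicate error. The scallops were bought at a market and kept in tanks, and neither strain nor age was given.

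Mitochondrial DNA of animals encodes membrane subunits of the respiratory chain, and the remaining subunits are encoded in the nucleus and imported. Complex I (NADH dehydrogenase), complex III (cytochrome b-c1 complex), complex IV (cytochrome c oxidase) and the ATP synthase hold subunits of both origins, whereas complex II (succinate dehydrogenase) is nuclear. In the animals studied for it, mitochondrial DNA is transcribed as long precursors that are cut into single RNAs and given a poly(A) tail, which is how such RNAs enter libraries made from poly(A) RNA. The gill of a bivalve is a ciliated organ of respiration and filter feeding.

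Each of the 3 unigenes was longer than a single mitochondrial gene usually is, and for each the best nucleotide hit was a complete mitochondrial genome of *A. irradians*. The best protein hit of Unigene629_All (3654 bp) was nad1, a core membrane subunit of complex I. That of Unigene13011_All (8129 bp) was cox1, the catalytic subunit of cytochrome c oxidase, and that of Unigene9103_All (4059 bp) was nad5, a proton-pumping membrane subunit of complex I. They are called the nad1, cox1 and nad5 contigs from here on. Their lengths summed to 15842 bp. Of the 13 protein genes usual in animal mitochondrial DNA, these 3 were named by a contig and 10 (nad2, nad3, nad4, nad4L, nad6, cox2, cox3, cob, atp6 and atp8) were not. Whether the mitochondrial genome of this scallop carries all 13 was not checked. The annotation gives a single best hit per contig, so that the value of a contig may hold reads of neighbouring genes, and nothing can be said of the 10 genes one by one. The contigs come from the same small genome and are not independent of each other.

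A read stands below for a unit of the RSEM expected count, and the totals were 10305482 reads in the library of the control and 10414545 in that of PA. These totals are sums over the listed unigenes and not all sequenced reads. Shares of a library given below are shares of these totals. The nad1 contig had 1482919 reads in the library of the control and 1728125 in that of PA. The cox1 contig had 458534 and 580661 reads, and the nad5 contig had 70028 and 75145. For each contig the PA library held more reads, with a smaller gap for the nad5 contig than for the others.

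Per length the order of the contigs was the same in both libraries. The level of the nad1 contig was 39774 FPKM (fragments per kilobase of unigene, scaled to the mapped fragments of the library) in the control library and 45890.1 FPKM in that of PA, the highest of all unigenes in each. The level of the cox1 contig was 5484 and 6875 FPKM, rank 4 in each library. The level of the nad5 contig was 1688 and 1794 FPKM, rank 80 in the control library and rank 68 in that of PA. In reads per kilobase the nad1 contig stood 7.19 times above the cox1 contig in the control library and 6.62 times in that of PA. It stood 23.5 and 25.5 times above the nad5 contig. The distance between neighbours in this order was thus far larger than the difference of any contig between the libraries, as the plot of levels shows.

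**Figure D1:**
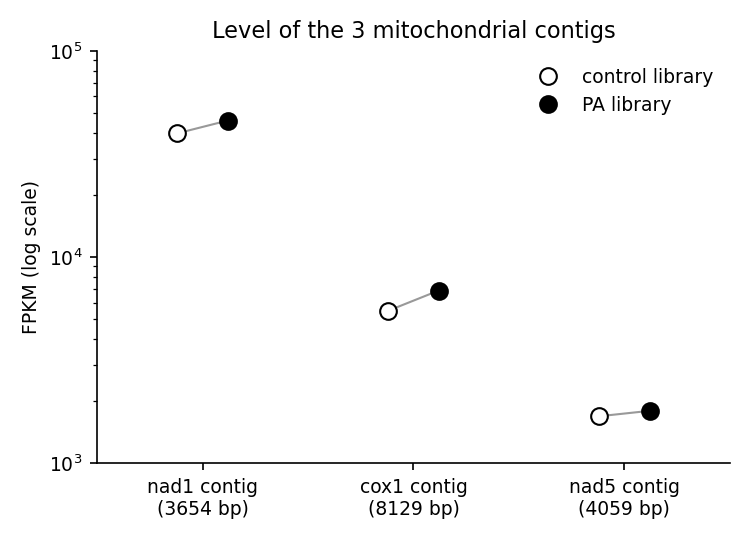
The level of each mitochondrial contig in FPKM, on a log axis, with the control library as an open circle and the PA library as a filled circle; each point is 1 library. The nad1 contig (39774 and 45890.1 FPKM) lies above the cox1 contig (5484 and 6875) and the nad5 contig (1688 and 1794) in both libraries.

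Together the 3 contigs took 19.5% of the reads of the control library and 22.9% of those of the PA library. The exact (Clopper-Pearson) 95% intervals of these shares were 19.49% to 19.54% and 22.86% to 22.92%, and they cover counting error only. The nad1 contig alone took 14.4% and 16.6%, the cox1 contig 4.45% and 5.58%, and the nad5 contig 0.680% and 0.722%. As a log2 ratio of PA over control the summed share differed by 0.23 (1.17-fold, 95% counting interval 0.227 to 0.233). The nad1 contig held 73.7% of these reads in the control library and 72.5% in that of PA. Without it the summed log2 ratio of the other contigs was 0.30. The reads left for all other unigenes were 80.5% of the control library and 77.1% of the PA library.

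None of the 3 contigs was called between the libraries. A call needed a false discovery rate (FDR) of at most 0.001 by a two-sided Audic and Claverie test, with Benjamini-Hochberg adjustment over all unigenes, and a fold change of at least 2. Of all listed unigenes 15.3% were called, and of the 212 unigenes with at least 10000 reads 19.8%. Over all listed unigenes 8.45% were higher after PA and 6.8% lower (5094 and 4103 unigenes), a balance that turned to 3828 higher and 5385 lower with TMM and to 3974 and 5244 by median-of-ratios scaling, scalings described with the signs of the contigs. The log2 fold change of FPKM was 0.21 for the nad1 contig (1.15-fold, 95% exact counting interval 0.202 to 0.209). It was 0.33 for the cox1 contig (1.25-fold, interval 0.320 to 0.331) and 0.087 for the nad5 contig (1.06-fold, interval 0.072 to 0.101). The FDR alone was passed by all 3, as it was by 20.2% of all listed unigenes and by 86.8% of those with at least 10000 reads. For the nad5 contig the Audic and Claverie FDR was 7.38e-29, and for the others it was too small to be held as a number. This test compares the reads of these libraries and not the conditions. An exact test in edgeR, run as if pools varied with a coefficient (BCV) of 0.2, gave an adjusted p of 0.87 for the nad1 contig, 0.73 for the cox1 contig and 1 for the nad5 contig. The unadjusted p of that exact test was 0.62, 0.43 and 0.83.

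Another scaling turned the sign of some of these differences. Scaled to the library totals, the 38391 unigenes that had 10 reads or more had a median log2 fold change of 0.21 themselves, close to the nad1 contig. With TMM factors from edgeR, which set that median to -0.032, the nad1 contig stood at -0.04, the cox1 contig at 0.08 and the nad5 contig at -0.16. Under a median-of-ratios scaling they were -0.01, 0.11 and -0.13. With the reads of the contigs themselves left out of the totals they were 0.27, 0.39 and 0.15. The median of all unigenes was then 0.27. The cox1 contig alone of the 3 kept a positive value under all of these scalings, and no contig reached a 2-fold change under any, as the plot by scaling shows.

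**Figure D2:**
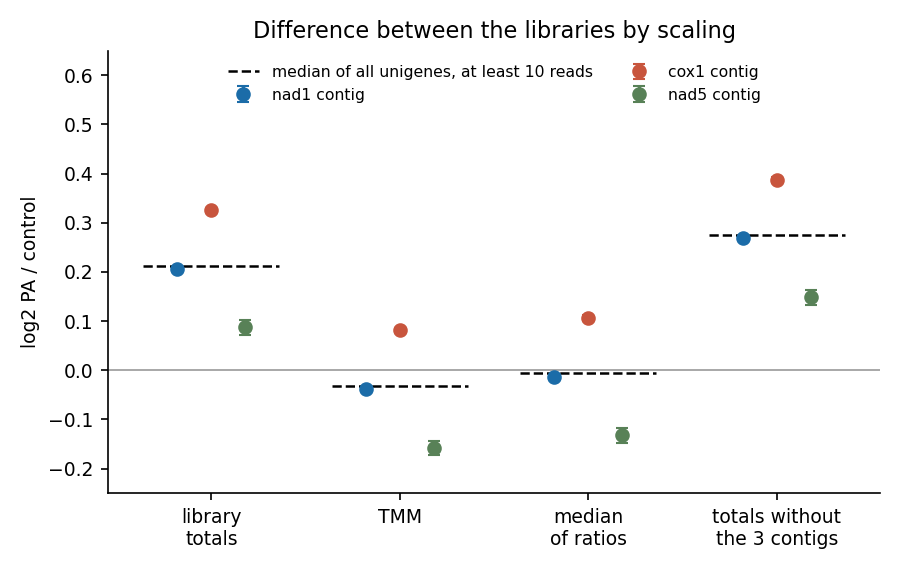
The log2 ratio of PA over control of each contig (circles, with 95% exact counting intervals, mostly smaller than the symbol) under 4 scalings, and the median of all unigenes with at least 10 reads (dashed). The nad1 contig lies next to that median (0.206 beside 0.213 with the library totals), with the cox1 contig above it and the nad5 contig below it. A scaling shifts all unigenes by the same amount, so these positions are the same under each by construction.

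The ratios between the contigs do not depend on scaling. The reads of the cox1 contig relative to the nad1 contig were 1.09-fold higher in the PA library, a log2 change of 0.12 (95% interval from the reads, by normal approximation, 0.113 to 0.126). Those of the nad5 contig relative to the nad1 contig differed by -0.12 (interval -0.134 to -0.104). The widest gap was between the cox1 and nad5 contigs, at a log2 change of 0.24 (interval 0.223 to 0.255, 1.18-fold). The 3 contigs therefore did not differ by the same factor between these libraries beyond counting error, while the variation of such ratios between pools of scallops was not measured.

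The contigs lay among the other highly expressed unigenes in their log2 fold change, taken with its sign. Of the 2415 unigenes with at least 1000 reads, 63.8% had a log2 fold change below that of the nad1 contig, 68.1% below that of the cox1 contig and 58.8% below that of the nad5 contig. The median of these unigenes was -0.11 and their middle range (25th to 75th percentile) ran from -0.76 to 0.54. Among the 209 other unigenes with at least 10000 reads the median was -0.068 and the middle range -0.36 to 0.28, which held the nad1 and nad5 contigs but not the cox1 contig.

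**Figure D3:**
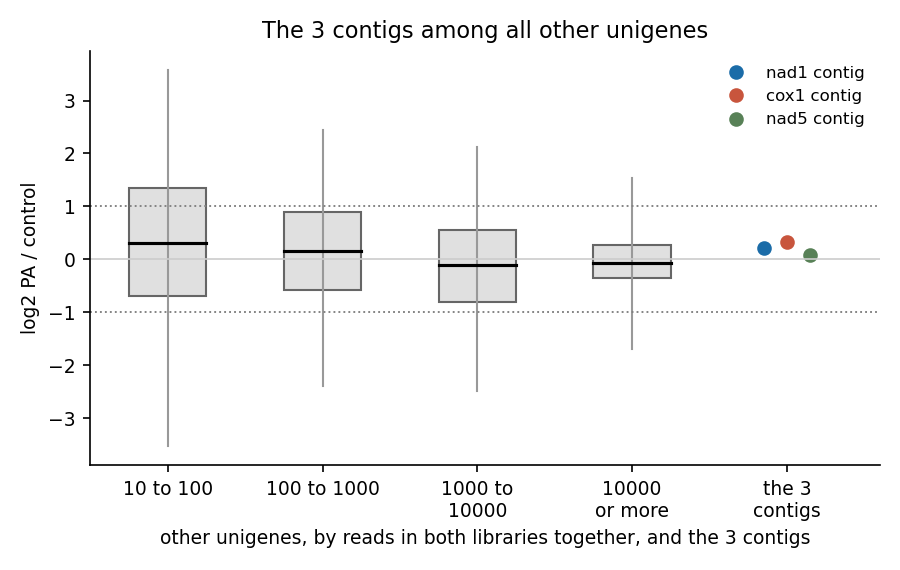
The log2 ratio of PA over control of the other unigenes, grouped by their reads in both libraries together (line: median, box: 25th to 75th percentile, whisker: 5th to 95th percentile), beside the 3 contigs (circles); dotted lines mark a 2-fold change. The nad1 and nad5 contigs (0.21 and 0.09) lie within the height of the box of unigenes with 10000 reads or more (-0.36 to 0.28), and the cox1 contig (0.33) lies above it.

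Other unigenes matched scallop mitochondrial DNA in their nucleotide hit without passing the rule. There were 8 of these, with 214 reads in the library of the control and 263 in that of PA, against 2011481 and 2383931 on the contigs. On 4 of them the hit was the large ribosomal RNA of the *A. irradians* mitochondrion, and together they held only 46 and 68 reads. The one with the most reads, Unigene7205_All (656 bp), had 19 and 27 reads, a log2 ratio of 0.49 (95% exact counting interval -0.41 to 1.42). Whether ribosomal RNA also lay within the contigs was not tested, so that these counts do not give its level. Unigene11402_All (1526 bp) had 25 and 141 reads and was called higher in the PA library (log2 2.48). Its nucleotide hit was weak (E value 1e-14), to mitochondrial ribosomal RNA of the scallop *Chlamys*, and its Nr hit named the nuclear gene of a tripartite motif protein. CL180.Contig4_All (673 bp) had 77.04 and 30.02 reads (log2 -1.37) and CL1744.Contig1_All (1524 bp) had 61.2 and 17.3 (log2 -1.83). The values of their clusters are not given here, so that a shift of reads between contigs was not tested. Both matched the mitochondrial genome of *A. irradians* over weak hits (E values 1e-21 and 7e-07) and had no protein hit. These 3 were picked out after their values were seen. The 8 unigenes that had the words but no scallop hit held 6 to 328 reads each.

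The nuclear partners of the contigs were counted over words in the Swiss-Prot column. Of the 63 unigenes listed for complexes I to IV and the ATP synthase, 55 had at least 10 reads. Of these 55, 3 were called higher in the PA library, 1 was called lower and 51 were not called, against 13.3% higher and 10.7% lower among all 38391 unigenes with at least 10 reads. Under TMM the balance turned, to 0 called higher and 2 lower of the 55, against 9.97% and 14.0% of all, and the same counts were found by median-of-ratios scaling. Their median log2 fold change was 0.18, beside 0.21 for all, and 13 of the 55 lay between the lowest and the highest of the contigs. That median became -0.067 under TMM and -0.041 under median-of-ratios scaling. Summed over the 55, the reads went from 61160 to 75252, 0.593% and 0.723% of the libraries. The contigs had 32.9 times as many reads as these nuclear unigenes in the control library and 31.7 times as many in the PA library, a log2 change of -0.05 that does not depend on scaling.

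In each library the nad1 and nad5 contigs stood above the nuclear unigenes of complex I in level. Each contig may hold reads of neighbouring genes, so that this is not a distance between single genes. The 28 nuclear unigenes with at least 10 reads had a median level of 59.4 FPKM in the control library and 71.4 in that of PA. The highest of them, at 348 and 328 FPKM, was the accessory subunit NDUFB5 (Unigene1558_All). The nad1 contig stood 114 and 140 times above it, and the nad5 contig 4.85 and 5.46 times. In the log2 fold change 14 of the 28 lay below the nad1 contig and 14 above it, and 11 lay below the nad5 contig and 17 above it. The median of the 28 was 0.21, with 1 called higher and 1 called lower (3.57% each), against 13.3% and 10.7% of all. Under TMM 0 were called higher and 2 lower (7.14%), against 9.97% and 14.0% of all. The same counts of the 28 were found by median-of-ratios scaling. NDUFB10 (Unigene7997_All), an accessory subunit of the membrane arm, rose from 480 to 1026 reads (log2 1.08, and 0.84 with TMM, short of a 2-fold change). A contig of NDUFS7, a core iron-sulphur subunit (CL3582.Contig2_All), fell from 423 to 1.76 reads, a log2 ratio of -7.93 with a counting interval of -10.8 to -5.88. The cluster it belongs to, 2 contigs together, went from 1516 to 2196 reads (log2 0.52), so that the fall was not seen in the cluster as a whole.

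In complex IV, 2 of the 4 nuclear unigenes had at least 10 reads and neither was called, against 24.0% of all with such reads. Subunit 4 (Unigene18692_All), which is known for its regulatory role, had 294 and 293 FPKM (log2 -0.01). The cox1 contig stood 18.6 times above it in the control library and 23.4 times in that of PA. The contig may also hold reads of neighbouring genes. Both nuclear unigenes had a log2 fold change below the 0.33 of the cox1 contig. None of the 7 nuclear unigenes of complex III was called, against the same 24.0%. Their median was -0.04 and their range ran from -0.49 to 0.26. The Rieske iron-sulphur protein (Unigene5785_All) had 2225 and 2186 reads. Complex II, which has no mitochondrially encoded subunit, had 1 of 4 unigenes called higher, against 13.3% of all unigenes with at least 10 reads. This was a contig of the cytochrome b small subunit (CL3449.Contig1_All). It rose from 133 to 298 reads (log2 1.16, and 0.91 with TMM, where it was not called), and its cluster of 2 contigs changed by 0.39. The iron-sulphur subunit (Unigene12172_All) had 1182 and 1190 reads.

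Of 14 nuclear ATP synthase unigenes with at least 10 reads, 1 was called higher (7.14%) and none lower, against 13.3% and 10.7% of all. Their median was 0.25. The called unigene was the catalytic beta subunit (Unigene1736_All), which rose from 4788 to 9964 reads (log2 1.04, 95% exact counting interval 0.99 to 1.09). Its log2 fold change was 0.80 under TMM and 0.82 under the median of ratios, short of a 2-fold change, and no ATP synthase unigene was called under either. The plot of the nuclear subunits sets them against the contigs.

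**Figure D4:**
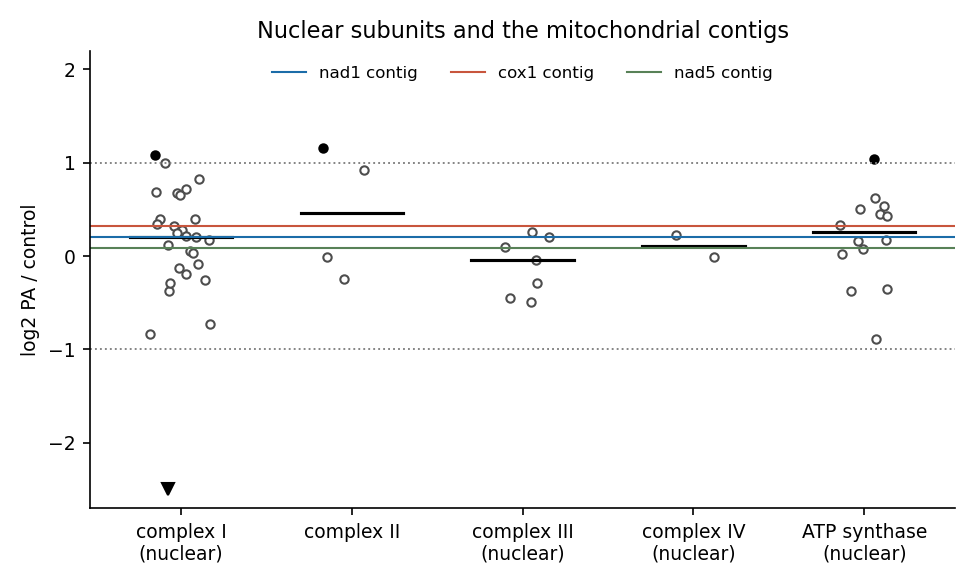
The log2 ratio of PA over control of each nuclear unigene of the respiratory chain and the ATP synthase with at least 10 reads (filled: called, open: not called, short line: median; the triangle is the NDUFS7 contig at -7.93, drawn at the lower edge), with the contigs as coloured lines; dotted lines mark a 2-fold change. The lines of the contigs (0.09 to 0.33) run through the middle of the nuclear subunits of complex I and the ATP synthase and lie above the median of complex III (-0.04).

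The genes that maintain and read the mitochondrial genome were sparsely covered. Of 12 unigenes for mitochondrial transcription and RNA processing with at least 10 reads, 1 was called higher and 1 lower, 16.7% against 24.0% of all unigenes with at least 10 reads, with a median of 0.46. TFAM (Unigene11079_All), which packages mitochondrial DNA and is needed for transcription from its promoters, had 110 and 201 reads, a log2 ratio of 0.86 that was below a 2-fold change and not called. Both called unigenes were contigs of the same cluster, with a hit to FASTKD3, a member of a family of mitochondrial RNA-binding proteins. CL2875.Contig2_All rose from 38.8 to 217 reads and CL2875.Contig1_All fell from 157 to 45.2, while the cluster changed by 0.21. For the maintenance of mitochondrial DNA 2 unigenes passed the minimum and neither was called, against the same 24.0%. Under TMM 1 of the 2 was called lower, against 14.0% of all. The thymidine kinase TK2 (CL38.Contig1_All), which supplies nucleotides for mitochondrial DNA, had 64 and 31 reads (log2 -1.06, Audic and Claverie FDR 0.0025, not called).

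Mitochondrial ribosomal proteins, which with the ribosomal RNA of the organelle translate the mitochondrial messengers, were the longest list of mitochondrial genes counted. Of 88 unigenes 10 were called higher and 7 lower, 19.3% against 24.0% of all unigenes with at least 10 reads, with a median of 0.18. Under TMM 6 were called higher and 9 lower (6.82% and 10.2%), against 9.97% and 14.0% of all. The balance turned in the same way over all unigenes. MRPS5 (Unigene5761_All), with the most reads, had 375 and 600 (log2 0.66, not called). A contig of MRPS7 (CL801.Contig3_All) had 1.24 and 51.2 reads, a log2 ratio of 5.35 with a counting interval of 3.11 to 11.0, and its cluster of 8 contigs changed by 0.49. A contig of MRPS33 (CL1644.Contig1_All) had 64.4 reads in the library of the control and none (0) after PA, which is at least 21.7-fold lower against 3 reads, and its cluster changed by -0.10.

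Among 28 unigenes for the assembly of the complexes 4 were called higher and 5 lower, 32.1% against 24.0% of all unigenes with at least 10 reads, with a median of 0.39. The 28 came from 20 clusters or unclustered unigenes, so that contigs of 1 cluster were counted separately. Under TMM 3 were called higher and 6 lower (10.7% and 21.4%), against 9.97% and 14.0% of all. The complex I assembly factor NDUFAF7 (Unigene3860_All) had 392 and 243 reads (log2 -0.70, not called). A contig of the cytochrome c oxidase assembly factor COA5 (CL969.Contig1_All) rose from 28.5 to 123 reads, with its cluster at 0.36. A contig of COX19 (CL4509.Contig1_All), a protein of cytochrome c oxidase assembly, had 65.2 and 0 reads, at least 22.0-fold lower against 3 reads, with its cluster at -0.60. Among 11 unigenes for carriers, porins, import receptors, prohibitins and citrate synthase 1 was called higher and 2 lower, 27.3% against the same 24.0%, with a median of -0.29. Under TMM 1 was called higher and 4 lower (9.09% and 36.4%), against 9.97% and 14.0% of all. The ADP/ATP carrier (Unigene14265_All), which exchanges the nucleotides across the inner membrane, had 11038 and 10899 reads. The import receptor TOM20 (Unigene14351_All) rose from 110 to 285 reads (log2 1.36), and a contig of prohibitin-2 (CL2183.Contig1_All), a scaffold protein of the inner membrane, fell from 765 to 12.5 (log2 -5.95), with its cluster of 2 contigs at -1.15.

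Markers of the tissue differed between the libraries beside the contigs. Ciliated cells were marked by 165 unigenes annotated as axonemal dynein heavy chains (125 of them), tektins, radial spoke, intraflagellar transport or outer dense fibre proteins. Of the 165, 103 had at least 10 reads. Of these 26 were called higher and 2 lower (25.2% and 1.94%), against 13.3% and 10.7% of all unigenes with at least 10 reads. Under TMM 20 were called higher and 2 lower (19.4% and 1.94%), against 9.97% and 14.0% of all. The summed level of the list was 712 FPKM in the control library and 1343 in that of PA. All 5 kinds of marker had reads in both libraries and a higher summed level in that of PA. By ratio, intraflagellar transport differed least (243.5 and 291.2 FPKM) and axonemal dynein heavy chains most (89.8 and 272.4 FPKM). Of 52 muscle unigenes 47 had at least 10 reads, and 8 were called higher and 8 lower (17.0% each). Under TMM 6 were called higher and 11 lower (12.8% and 23.4%), against the same 9.97% and 14.0%. Their summed level was 1505 and 1396 FPKM. Of the 6 kinds of muscle marker tropomyosin took 1086 and 981 FPKM of it. Troponin (138 and 181 FPKM) and striated myosin heavy chain (49.0 and 67.1) were higher in the PA library. Calponin (155 and 90.5) and paramyosin (77.0 and 72.5) were lower, as was tropomyosin. Twitchin had 0 reads in the control library and only 9 in that of PA. Unigenes with a best hit to a ciliate, an alga, an apicomplexan or related protist, or a bacterium took 0.208% and 0.464% of the reads. The part of these differences in the shares of the contigs was not tested. In bulk RNA a change in the number of cells of a type and a change in the RNA per cell cannot be told apart.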

How the data were processed

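RNA of pooled gills was enriched for poly(A) RNA and sequenced in 1 library per condition. The authors assembled the reads with Trinity and TGICL, aligned them back with Bowtie and counted with RSEM, per the study's methods. The deposited tables give an expected count and an FPKM per unigene. A further table of the authors holds unigene lengths (bp, other), annotation and their own comparison of the libraries. Only its lengths and annotation were used, and its 2 columns of FPKM and its fold changes and p-values were not.

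Members and lists were chosen with earlier results of these data known. The named unigenes are every contig and, for each list, the unigene with the most reads and the called unigenes of largest rise and fall with at least 50 reads. After the descriptions were read, complex I assembly factors, a dual oxidase factor and calponin homology domains were taken out of lists they matched by wording. Unigenes missing from a library were taken as 0 reads, an FPKM of 0 was set to 0.01 in fold changes, and expected counts were rounded for the tests. Medians of the lists were the same with unigenes at 0 set to 3 reads.

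Sequences and coordinates of the contigs were not used here. Alternatives were other scalings, pseudocounts, thresholds, minimum reads, cluster sums and assumed variations. Python 3.11.15, numpy 2.4.6, scipy 1.17.1, pandas 2.3.3, matplotlib 3.10.9, R 4.3.3 and edgeR 4.0.16 were used.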

Additional observations from a re-analysis of the deposited data

How the results depend on the processing

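With 1 library per condition no library could be left out. No paired analysis was possible because each group has a single library. The count of 0 called contigs was the same under all 12 alternatives. These were the scalings, the minimum reads, the pseudocounts, the cluster sums, an FDR of 0.05, a fold change of 1.5 and the exact test of edgeR at a BCV of 0.2 and 0.4. The minimum reads, pseudocounts, cluster sums and FDR of 0.05 could not have changed the count. Nor could the exact test of edgeR, as long as a 2-fold change was still needed. The largest fold change, 1.25 with the library totals, was short of 1.5 as well. Every contig is unclustered, has far more reads than the minima, and already passed the FDR while short of a 2-fold change. The summed log2 ratio of the contigs, 0.23 with the library totals, was -0.015 under TMM and 0.011 by median-of-ratios scaling. The median of the contigs, 0.21, was -0.039 under TMM, -0.013 by median-of-ratios scaling and 0.27 with the contigs left out of the totals. The nad1 contig changed sign to -0.04 under TMM and -0.01 by median-of-ratios scaling, and the nad5 contig to -0.16 and -0.13. Under TMM as under the median of ratios 0 complex II and 0 ATP synthase unigenes were called in place of 1 each, and 1 unigene of mitochondrial DNA maintenance in place of 0. With TMM 5 carriers, porins, import receptors and related unigenes were called in place of 3. The cox1 contig, 0.33 with the library totals, ran from 0.08 with TMM to 0.39 with the contigs left out of the totals. The counts of called unigenes in the other mitochondrial lists stayed within 1.5 times under both scalings and with a minimum of 50 reads. For complex I and the ribosomal proteins lower calls outnumbered higher ones under both scalings. The same was so over all unigenes (3828 higher and 5385 lower with TMM). For the ciliated and muscle lists the scalings were added after seeing the data, and gave 22 and 17 calls with TMM in place of 28 and 16. Depth does not limit the values of the contigs, whose counting intervals are narrow. The variation between pools does, and it was not measured.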
